A study of Homo sapiens with 12 samples.

Results

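The effect of losing *GATA2* was compared between both stages of blood formation from human embryonic stem cells, hemogenic endothelium (HEs) and hematopoietic progenitor cells (HPCs). The measure was the interaction of genotype and stage, defined for each gene as the difference GATA2-/- HPC minus WT HPC, less the difference GATA2-/- HE minus WT HE, on the log2(TPM + 1) scale. A positive interaction therefore means that the GATA2-/- value, relative to WT, was higher in HPCs than in HEs, and a negative one that it was lower. TPM is a transcript level corrected for gene length and scaled to nearly the same total in each library. The genes described are the 13877 protein-coding genes that reached a TPM of 1 in 2 or more of 8 libraries, of 19320 protein-coding genes and 56266 genes listed in all.

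The cells were H1, an established line of human embryonic stem cells, unmodified (WT) or carrying a homozygous *GATA2* knockout (H1-GATA2-/-), and were differentiated in co-culture with OP9 mouse stromal cells. HEs were sorted on day 8 as CD34+CD31+CD43- cells, and HPCs on day 9 as CD34+CD43+ cells. The 4 groups, WT HE, GATA2-/- HE, WT HPC and GATA2-/- HPC, had 2 libraries each. The knockout was made with a TALEN pair that placed a neomycin cassette in exon 3, and the labels name 1 knockout line, so genotype and clone cannot be told apart. Stage, day of culture and sort gate change together and cannot be told apart either. The labels do not say that the libraries of a group came from separate cultures, and p-values then measure the spread between these samples, which may be technical. In sorted bulk samples, fewer cells of a type and less RNA per cell cannot be told apart.

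GATA2 is a zinc-finger transcription factor that binds GATA sequences in endothelium with blood-forming potential and in early progenitors. During the endothelial to hematopoietic transition (EHT), endothelial cells lose their vessel program and switch on blood genes such as *RUNX1* and *SPI1*. As erythroid and megakaryocytic cells form, GATA1 takes over many of the sites held by GATA2, an exchange known as the GATA switch.

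The TPM total was between 998299 and 998897 in the 8 libraries, with 16004 to 17335 genes reaching a TPM of 1, and the read depth behind these values is unknown. The sort labels were compared with marker genes. *SPN*, which encodes CD43, had a TPM of 8.81 and 4.86 in WT HEs and 7.48 and 1.76 in GATA2-/- HEs, against 98.0 to 107.9 in the 4 HPC libraries. The HE libraries, sorted as CD43-, thus held *SPN* transcripts in both genotypes, at levels that overlapped between them. The summed TPM of 20 endothelial markers was 7306 to 9438 in HE libraries and 1443 to 2130 in HPC libraries.

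No gene had an interaction at an adjusted p under 0.05 from limma (0 of 19870 genes of any class), and the smallest adjusted p from limma among protein-coding genes was 0.710. At an unadjusted p under 0.05, 592 protein-coding genes stood out, 4.27% of those tested, which is below the 693.9 that uniform p-values would give. Of these, 421 (3.03%) were positive and 171 (1.23%) negative. Over all 19870 genes, 1066 (5.36%) were at an unadjusted p under 0.05. At an unadjusted p under 0.01 there were 113 genes (0.814%). The genes named below are therefore those at the low end of a p-value distribution without an excess of small values among protein-coding genes, and none has been shown to depend on stage by itself. The median standard error of an interaction was 0.45 on the log2 scale, 0.41 for genes with a group mean TPM of at least 5 and 0.70 below that.

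**Figure D1:**
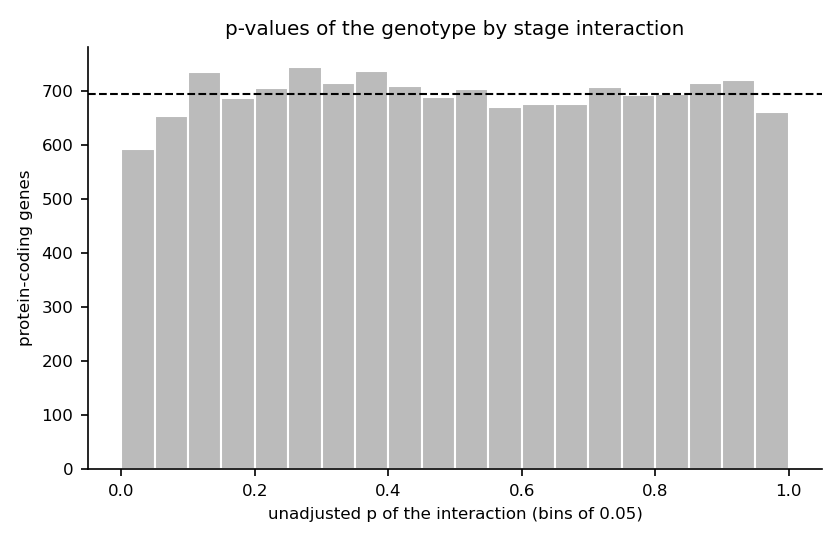
Unadjusted limma p-values of the interaction for the 13877 protein-coding genes, in bins of 0.05; the vertical axis counts genes and the dashed line marks the 693.9 genes per bin that a uniform distribution gives. The lowest bin holds 592 genes, below the line.

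The same fit separated the stages in many genes and the genotypes in few. WT HPCs differed from WT HEs in 1709 protein-coding genes at an adjusted p under 0.05 from limma (12.3%), and GATA2-/- HPCs from GATA2-/- HEs in 2148 (15.5%). Between genotypes, 1 protein-coding gene passed in HEs (0.00721%) and 1 in HPCs (0.00721%), or 2 (0.0101%) and 5 (0.0252%) of the genes of any class. At an unadjusted p under 0.05, 535 protein-coding genes (3.86%) stood out between genotypes in HEs, and 1048 (7.55%) did so in HPCs.

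The median interaction over the protein-coding genes was 0.09, and 90 percent of the genes lay between -0.77 and 1.02. It exceeded 1 in size in 1087 genes (7.83%). The split into positive and negative genes depended on the scaling. Of the genes at an unadjusted p under 0.05, 71.1% were positive as given, 84.2% when TPM was rescaled without mitochondrial genes, 56.5% after quantile normalization and 36.7% when each library was centred on its median. These scalings moved the median interaction to between -0.09 and 0.17. Signs of small interactions are thus read relative to this shift, and the counts of each list below are to be read against the 3.03% positive and 1.23% negative genes over all protein-coding genes.

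The most frequent pattern among the 421 positive genes was a lower value in GATA2-/- HEs with a higher one in GATA2-/- HPCs. In 206 of them (48.9%), both GATA2-/- HE libraries were below both WT HE libraries and both GATA2-/- HPC libraries were above both WT HPC libraries. A further 128 were higher in HPCs with overlapping HE values, and 73 were lower in HEs with overlapping HPC values. Only 8 were higher in both stages and 6 lower in both. Among the 171 negative genes, 89 (52.1%) were higher in GATA2-/- HEs and lower in GATA2-/- HPCs, 54 were lower in HPCs alone with overlapping HE values, 23 were higher in HEs with overlapping HPC values and 5 were lower in both stages. These patterns follow in part from the choice by p, since a large interaction is most easily reached by opposite differences. Over all protein-coding genes, 454 (3.27%) showed the first of these patterns and 214 (1.54%) its reverse. The HE and HPC differences correlated across protein-coding genes with r = 0.159, where the genes share the libraries and are not independent replicates.

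**Figure D2:**
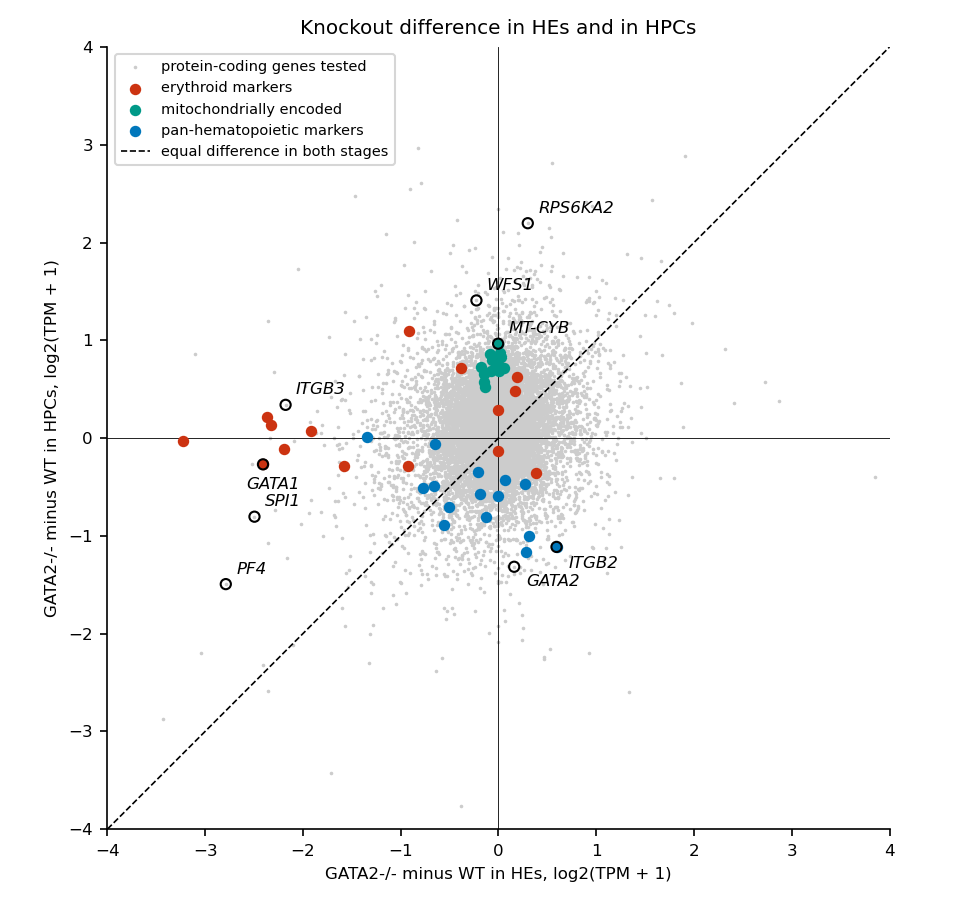
Each point is a gene, with the log2(TPM + 1) difference GATA2-/- minus WT in HEs on the horizontal axis and in HPCs on the vertical axis; the dashed line marks equal differences, and the interaction is the vertical distance from it. Erythroid markers lie mostly to the left near 0 on the HPC axis, the mitochondrially encoded genes above 0 at an HE difference near 0, and 1 gene falls outside the axes.

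*GATA2* itself had a negative interaction that did not pass the adjusted threshold. The gene (ENSG00000179348) lies on the minus strand of chromosome 3 of GRCh37, chr3:128198270-128212044. Its TPM values were 106.8 and 78.0 in WT HEs, 110.9 and 94.1 in GATA2-/- HEs, 290.1 and 204.2 in WT HPCs, and 112.5 and 83.8 in GATA2-/- HPCs. The genotypes overlapped in HEs, whereas both GATA2-/- HPC libraries lay below both WT HPC libraries. From HE to HPC *GATA2* rose in WT cells by 1.40 on the log2 scale (adjusted p = 0.00858 from limma), and the change in GATA2-/- cells was -0.07 (adjusted p = 0.888 from limma). The interaction was -1.48 (standard error 0.35), with an unadjusted p of 0.00246 and an adjusted p of 0.772 from limma. A whole-gene TPM also counts transcripts of the disrupted allele, so these values do not check the genotype labels.

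Erythroid markers gave a positive median interaction. Of 17 listed genes 16 were tested, 8 had a positive and 1 a negative interaction at an unadjusted p under 0.05, against 3.03% and 1.23% of all protein-coding genes, and the median was 1.20 against 0.09 over all protein-coding genes. In 10 of the 16 all HPC differences lay above all HE differences, as in 11.5% of all protein-coding genes. Among the 8 positive genes were *GATA1*, *KLF1* and *NFE2*, which encode erythroid transcription factors, *GYPB* and *GYPE*, which encode glycophorins, *RHAG*, a Rh complex protein, and *ANK1*, a membrane skeleton protein. The same 8 genes were lower in GATA2-/- HEs at an unadjusted p under 0.05 from limma, as were 2.71% of all protein-coding genes. A lower HE value is part of a positive interaction, so this follows in part from the choice of these genes. Of all 421 positive genes, both GATA2-/- HE libraries were below both WT HE libraries in 206 with higher HPC values, 73 with overlapping ones and 6 with lower ones. These are counts by overlap of libraries and not by p, so they are not directly comparable with the 8 genes. In HPCs, the list had a median difference of 0.10.

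*GATA1* (ENSG00000102145, GRCh37 chrX:48644948-48652718, plus strand) is the master regulator of erythroid and megakaryocytic genes. It had TPM values of 18.4 and 12.1 in WT HEs, 2.78 and 1.37 in GATA2-/- HEs, 172.3 and 219.6 in WT HPCs, and 142.7 and 182.2 in GATA2-/- HPCs. Both GATA2-/- HE libraries were far below both WT HE libraries, and the HPC libraries of the genotypes overlapped. The log2 difference was -2.41 (standard error 0.30) in HEs and -0.27 (0.30) in HPCs. The interaction of 2.14 (0.43) had an unadjusted p of 0.000894 and an adjusted p of 0.710 from limma. Both genotypes gained *GATA1* from HE to HPC, by 3.62 in WT and 5.76 in GATA2-/- cells (adjusted p = 0.000482 and 0.000133 from limma).

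*GYPB* had an interaction of 2.09 and *GYPE* of 3.20, but the glycophorin genes are near-identical copies whose short reads can be assigned to one another, so the split between them is uncertain. *NFE2* had an interaction of 2.46, with a TPM of 36.2 and 17.2 in WT HEs, 7.58 and 2.13 in GATA2-/- HEs, and 206.4 to 235.2 in all HPC libraries.

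Like *NFE2*, *ANK1* was higher in both GATA2-/- HPC libraries than in both WT HPC libraries. *ANK1* had a TPM of 1.48 and 2.10 in WT HEs, 0.500 and 0.440 in GATA2-/- HEs, 9.15 and 18.2 in WT HPCs, and 27.4 and 30.3 in GATA2-/- HPCs. Its groups were apart in both stages and in opposite directions, with an interaction of 2.01. *GYPC*, a glycophorin gene outside that family that many cell types express, was the 1 negative gene of the list. Its TPM amounted to 246.5 and 252.3 in WT HEs, 337.3 and 313.0 in GATA2-/- HEs, 201.1 and 219.8 in WT HPCs, and 161.2 and 166.2 in GATA2-/- HPCs, for an interaction of -0.74. *TFRC* and *EPOR*, the receptors for transferrin and erythropoietin, had interactions of 0.43 and 0.31 at unadjusted p of 0.250 and 0.448 from limma.

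In HEs, the summed TPM of the 16 markers overlapped between the genotypes, at 605.4 and 476.9 in WT and 485.4 and 387.5 in GATA2-/- cells. Leaving out *GYPC*, the 1 negative gene of the list, was a choice made after seeing its values. The other 15 then summed to 358.9 and 224.5 in WT against 148.1 and 74.5 in GATA2-/- cells. That the genotypes no longer overlapped depends on this choice and is no separate support. In HPCs the sum of the 15 was 1924 to 2186 in all 4 libraries. Of the 10 globin genes, *HBM* was listed at 0 in all 4 HE libraries, and the globin sum came to a TPM of 55.6 and 47.7 in WT HEs, against 19.96 and 21.3 in GATA2-/- HEs. *SPN*, the gene of the antigen used to exclude blood cells from the HE gate, had an HE difference of -0.65 (unadjusted p = 0.207 from limma). The part of CD43+ cells in the HE gate in these results was not tested.

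Heme synthesis and globin genes gave smaller counts. Of 12 heme synthesis genes, 2 were positive at an unadjusted p under 0.05, and the median interaction was 0.35. *ALAS2*, the erythroid enzyme of the first step of heme synthesis, had a TPM of 22.4 and 13.5 in WT HEs, 6.47 and 1.93 in GATA2-/- HEs, 241.2 and 309.8 in WT HPCs, and 418.9 and 372.1 in GATA2-/- HPCs. Its groups were apart in both stages, lower in GATA2-/- HEs and higher in GATA2-/- HPCs, with an interaction of 2.51 (standard error 0.58, unadjusted p = 0.00226 from limma). *SLC25A37*, the mitochondrial iron importer, gave 1.30. *ALAS1*, the enzyme of the same step in other cells, had an interaction of -0.48 (unadjusted p = 0.216 from limma). Among 10 globin genes, with a median of 0.57, *HBE1* (epsilon globin) was positive, at 1.87. Single libraries moved these values widely, as the globin median was 0.07 without GATA2-/- HPC replicate 2, 0.09 without WT HPC replicate 1, 1.27 without GATA2-/- HPC replicate 1 and 1.47 without WT HPC replicate 2, and *HBE1* ranged from 1.08 to 2.66 when a library was left out. The globin totals of replicates differed by more than the genotypes did, at 4607 and 13963 in WT HPCs and 7087 and 15793 in GATA2-/- HPCs.

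GATA factors bind letters that include AGATAA and TGATAA. The RefSeq promoters of the positive erythroid and heme genes were searched for these forms on both strands, in the 250 bases before each start. Forms ending in G, such as TGATAG, were not searched and are not marked below. Of the 10 such genes 6 had an entry, and 5 of these held a match, in *ALAS2*, *GYPB*, *GYPE*, *KLF1* and *RHAG*. Over all 35116 entries 14.6% held a match, and over the tested protein-coding genes with an entry 11.9% did. *GYPB* and *GYPE* share nearly the same promoter letters and are not separate cases. The 150 bases before the start are printed 5′ to 3′ on the gene's strand for 3 promoters with a match and for *GATA1*, which had none, to show where the letters lie. Capitals mark the match, which is on the other strand in all 3 (TTATCT or TTATCA) and begins 127 bases before the start in *ALAS2*, 66 in *KLF1* and 31 in *RHAG*. A match is a description of the letters, and binding was not measured. The coordinates are on GRCh38.p14, chrX:55030978-55031127 (minus strand) for *ALAS2*, chr19:12887202-12887351 (minus) for *KLF1*, chr6:49636840-49636989 (minus) for *RHAG* and chrX:48786440-48786589 (plus) for *GATA1*.
ALAS2: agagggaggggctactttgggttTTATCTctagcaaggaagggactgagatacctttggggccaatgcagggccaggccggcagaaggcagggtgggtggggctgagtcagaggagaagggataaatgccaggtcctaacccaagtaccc
KLF1: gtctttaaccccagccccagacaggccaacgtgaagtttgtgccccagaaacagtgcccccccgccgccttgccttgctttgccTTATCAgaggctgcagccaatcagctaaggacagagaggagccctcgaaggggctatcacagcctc
RHAG: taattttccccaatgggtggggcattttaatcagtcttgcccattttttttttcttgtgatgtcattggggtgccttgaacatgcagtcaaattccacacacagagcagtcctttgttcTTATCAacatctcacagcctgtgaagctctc
GATA1: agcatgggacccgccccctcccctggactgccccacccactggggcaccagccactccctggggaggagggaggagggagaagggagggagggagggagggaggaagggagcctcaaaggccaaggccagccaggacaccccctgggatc

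**Figure D3:**
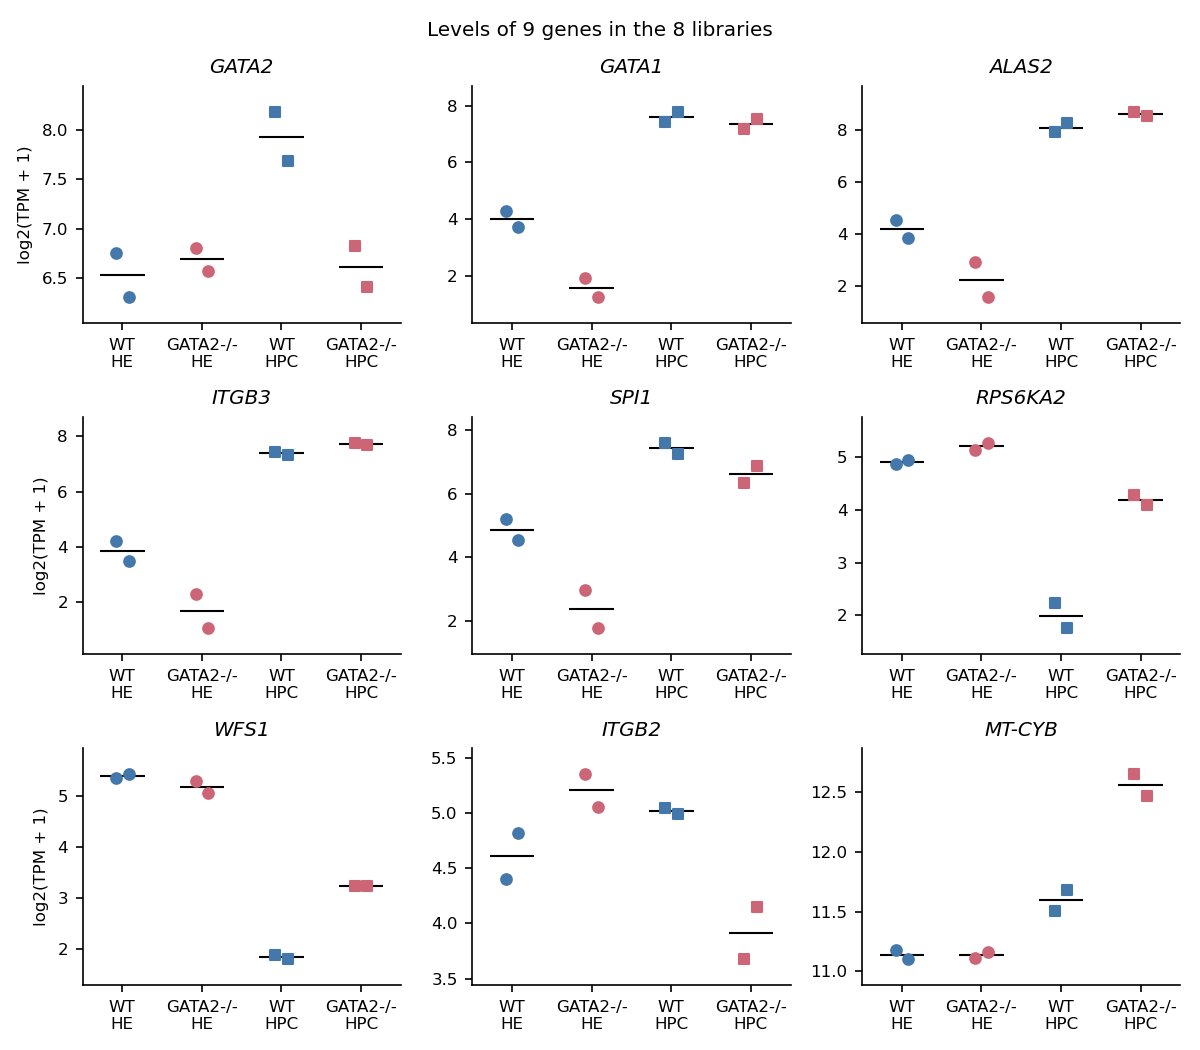
Levels of 9 genes, one panel each, as log2(TPM + 1) on the vertical axis; every symbol is 1 library (circles HEs, squares HPCs, blue WT, red GATA2-/-) and the line is the mean of the 2 libraries of a group, with vertical axes that differ between panels and do not start at 0. *GATA1*, *ALAS2*, *ITGB3* and *SPI1* are lower in both GATA2-/- HE libraries than in both WT HE libraries, while *GATA2* and *MT-CYB* overlap in HEs and are apart in HPCs.

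Among 16 hematopoietic regulators, 5 had a positive interaction at an unadjusted p under 0.05 and 0 a negative one, with a median of 0.43, against 3.03% and 1.23% of all protein-coding genes. The 5 were *GATA1*, *MYB*, *SPI1*, *RUNX1* and *ETV6*. Their count became 2 without WT HE replicate 1 or without WT HPC replicate 2, and 3 without WT HE replicate 2, GATA2-/- HE replicate 2 or GATA2-/- HPC replicate 1, and 1 gene was negative after quantile normalization, after median centring, with a replicate block, and without GATA2-/- HE replicate 1, WT HPC replicate 2 or GATA2-/- HPC replicate 1. The median was between 0.23 and 0.55 when a library was left out. *MYB*, a factor of progenitor growth, had a TPM of 26.5 and 14.5 in WT HEs, 6.67 and 3.53 in GATA2-/- HEs, and 80.4 to 102.5 in all HPC libraries. Its HE groups were apart and its HPC groups overlapped, with an interaction of 1.94 (standard error 0.48, unadjusted p = 0.00324 from limma). *RUNX1*, the factor required for EHT, had a TPM of 77.9 and 65.9 in WT HEs, 44.8 and 19.4 in GATA2-/- HEs, 326.7 and 197.6 in WT HPCs, and 360.7 and 228.8 in GATA2-/- HPCs. Its pattern was the same, and its interaction was 1.43 (0.56, unadjusted p = 0.0337 from limma).

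*SPI1* (GRCh37 chr11:47376411-47400098, minus strand), which encodes the myeloid factor PU.1, differed from these at the HPC stage. Levels were 35.8 and 22.2 in WT HEs, 6.87 and 2.41 in GATA2-/- HEs, 194.8 and 150.8 in WT HPCs, and 81.0 and 117.8 TPM in GATA2-/- HPCs. The GATA2-/- libraries were below the WT libraries in both stages, by a wider margin in HEs. The interaction was 1.69 (standard error 0.58, unadjusted p = 0.0176 and adjusted p = 0.846 from limma), and it was 0.97 from the replicate 1 libraries alone and 2.42 from those of replicate 2. Of 12 ETS factors tested, only *SPI1* and *ETV6* were at an unadjusted p under 0.05, both positive, and the list's median of 0.09 was that of all genes. *TAL1*, a partner of GATA factors and already high in HEs, had an interaction of 0.00 (standard error 0.39), with a genotype difference of 0.23 in each stage. *GFI1*, a repressor that closes the endothelial program in EHT, gave 1.27 (unadjusted p = 0.0872 from limma) and *GFI1B* 0.07 (unadjusted p = 0.863 from limma).

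The other GATA factors and their FOG cofactors gave 1 positive and 1 negative gene of 8 at an unadjusted p under 0.05, *GATA1* and *GATA2*. *ZFPM1*, which encodes the GATA1 cofactor FOG1, had an interaction of 1.16 (unadjusted p = 0.057 from limma). It was measured at a TPM of 12.4 and 6.32 in WT HEs, 5.76 and 3.98 in GATA2-/- HEs, 45.7 and 26.5 in WT HPCs, and 48.0 and 43.9 in GATA2-/- HPCs.

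Platelet and megakaryocyte markers went both ways. Of 17 genes, 3 were positive (*ITGB3*, *THBS1* and *PF4*) and 2 negative (*GP1BB* and *PPBP*) at an unadjusted p under 0.05, with a median of 0.25. *ITGB3* (GRCh37 chr17:45331193-45391109, plus strand), the beta chain of the platelet fibrinogen receptor, had a TPM of 17.6 and 10.2 in WT HEs, 3.87 and 1.08 in GATA2-/- HEs, 170.7 and 161.4 in WT HPCs, and 217.9 and 202.9 in GATA2-/- HPCs. It was lower in both GATA2-/- HE libraries and higher in both GATA2-/- HPC libraries, with an interaction of 2.52 (standard error 0.55, unadjusted p = 0.00159 and adjusted p = 0.710 from limma). *ITGA2B*, its partner chain, had an interaction of 0.68 (unadjusted p = 0.151 from limma). *PF4*, a platelet chemokine, was lower in GATA2-/- libraries of both stages, at 37.3 and 32.1 against 3.66 and 4.70 in HEs and 199.6 and 307.3 against 76.5 and 99.5 in HPCs. Its interaction of 1.30 (unadjusted p = 0.00701 from limma) was a difference in size between 2 lower values, -2.79 in HEs (adjusted p = 0.0295 from limma) and -1.49 in HPCs (adjusted p = 0.188 from limma). The HE call was lost when any library was left out, without a filter on low values, with either replicate block, without the intensity trend, and after quantile normalization or median centring. *GP1BB*, a chain of the von Willebrand factor receptor, was reversed, with a TPM of 5.58 and 7.32 in WT HEs, 14.97 and 11.1 in GATA2-/- HEs, 26.7 and 26 in WT HPCs, and 18.7 and 19.2 in GATA2-/- HPCs, for an interaction of -1.37.

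The 13 mitochondrially encoded protein genes were the only list in which every member had an unadjusted p under 0.05, all positive, from 0.66 to 0.97 with a median of 0.80. They encode subunits of the respiratory chain and ATP synthase, and they are transcribed together from the mitochondrial genome, so they are not separate cases. *MT-CYB*, for cytochrome b, had a TPM of 2318 and 2195 in WT HEs, 2214 and 2285 in GATA2-/- HEs, 2906 and 3283 in WT HPCs, and 6441 and 5648 in GATA2-/- HPCs. The genotypes overlapped in HEs, and the GATA2-/- HPC libraries were above all others. Its interaction was 0.97 (standard error 0.21, unadjusted p = 0.00131 and adjusted p = 0.710 from limma). The mitochondrial share of TPM was 6.82% and 6.29% in WT HEs, 6.50% and 6.38% in GATA2-/- HEs, 8.66% and 9.61% in WT HPCs, and 15.1% and 14.8% in GATA2-/- HPCs. The count of 13 fell to 8 after quantile normalization and to 4 with median centring, all positive. In contrast, 0 of 77 nuclear respiratory chain genes were at an unadjusted p under 0.05, and their median was -0.10. This median also depended on the scaling. It was -0.02 when TPM was rescaled without mitochondrial genes, -0.03 after quantile normalization and -0.28 with median centring, where 2 genes were negative at that p.

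Of the 15 protein-coding genes with the smallest p among positive interactions, 3 were mitochondrially encoded (*MT-ND4L*, *MT-CYB* and *MT-ATP8*) and *GATA1* and *ITGB3* were also among them. *CRYM*, which encodes a thyroid hormone binding protein, had a similar pattern to *GATA1*. Its TPM values were 20.3 and 11.0 in WT HEs, 3.21 and 3.19 in GATA2-/- HEs, and 77.7 to 102.3 in HPCs, for an interaction of 2.09 (unadjusted p = 0.000721 from limma).

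Several genes among the 15 were apart in HPCs. *RPS6KA2* (GRCh37 chr6:166822852-167319939, minus strand), which encodes a ribosomal S6 kinase downstream of ERK, had the smallest p. It had TPM values of 28.3 and 29.6 in WT HEs, 34.1 and 37.7 in GATA2-/- HEs, 3.68 and 2.37 in WT HPCs, and 18.5 and 16.0 in GATA2-/- HPCs. It fell from HE to HPC in both genotypes, by 2.91 in WT and by 1.02 in GATA2-/- cells on the log2 scale (adjusted p = 0.000547 and 0.0358 from limma). The interaction was 1.90 (standard error 0.37, unadjusted p = 0.000666 and adjusted p = 0.710 from limma). *WFS1*, the endoplasmic reticulum protein wolframin, also fell with stage in both genotypes. It had a TPM of 40.2 and 42.6 in WT HEs, 38.3 and 32.5 in GATA2-/- HEs, 2.68 and 2.47 in WT HPCs, and 8.49 and 8.47 in GATA2-/- HPCs, for an interaction of 1.63.

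*ATP8A1*, a phospholipid flippase, was low in 3 of the 4 groups, at 1.89 to 3.68, and had a TPM of 11.4 and 16.4 in GATA2-/- HPCs, for an interaction of 2.45. *INO80*, the ATPase of a chromatin remodelling complex, had a TPM of 18.7 and 15.03 in WT HEs, 9.51 and 8.40 in GATA2-/- HEs, 11.3 and 11.0 in WT HPCs, and 19.9 and 22.5 in GATA2-/- HPCs. Its groups were apart in both stages in opposite directions, for an interaction of 1.71. The readthrough gene *TGIF2-C20orf24* (2.70), whose reads overlap those of its parent genes, and *MBLAC2* (3.45), *AP000304.12* (3.79) and *RP11-613M10.8* (3.79) were also among the 15. These last 3 had TPM values between 0 and 13.2, and *RP11-613M10.8* was listed at 0 in 5 of 8 libraries.

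The negative genes were led by *ITGB2* (GRCh37 chr21:46305868-46351904, minus strand), the common beta chain of the leukocyte integrins. Its TPM amounted to 20.2 and 27.3 in WT HEs, 40.1 and 32.3 in GATA2-/- HEs, 32.1 and 30.9 in WT HPCs, and 11.8 and 16.7 in GATA2-/- HPCs. It was higher in both GATA2-/- HE libraries and lower in both GATA2-/- HPC libraries than in WT, and the interaction was -1.71 (standard error 0.37, unadjusted p = 0.00138 and adjusted p = 0.710 from limma). From HE to HPC it fell by 1.30 on the log2 scale in GATA2-/- cells (adjusted p = 0.0132 from limma), against a WT change of 0.41 (adjusted p = 0.427 from limma). *HCLS1*, a leukocyte signalling adaptor, had an interaction of -1.32, with a TPM of 8.15 and 11.3 in WT HEs, 11.6 and 12.8 in GATA2-/- HEs, 38.3 and 32.6 in WT HPCs, and 16.2 and 18.1 in GATA2-/- HPCs.

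Both genes belong to the pan-hematopoietic markers, of which 15 of 16 were tested. The list had 1 positive and 2 negative genes at an unadjusted p under 0.05 and a median interaction of -0.38, which was -0.12 without GATA2-/- HE replicate 1, -0.19 without WT HE replicate 2 and -0.67 without GATA2-/- HPC replicate 2. In HPCs 6 of its genes were lower in GATA2-/- cells at an unadjusted p under 0.05 and 0 higher, against 2.96% and 4.59% of all protein-coding genes, with a median difference of -0.57. The positive gene was *IKZF1*, which encodes the lymphoid factor Ikaros, with a TPM of 5.82 and 4.02 in WT HEs, 1.14 and 1.47 in GATA2-/- HEs, and 26.5 to 27.1 in all HPC libraries. Its interaction was 1.36 (unadjusted p = 0.00979 from limma). The summed TPM of the list was 2138 and 2048 in WT HPCs and 1413 and 1537 in GATA2-/- HPCs.

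Other genes among the 15 with the smallest p on the negative side had interactions from -3.93 to -0.74. *PKMYT1*, a kinase that inhibits CDK1, had a TPM of 65.5 and 60.3 in WT HPCs against 34.0 and 36.7 in GATA2-/- HPCs, and of 28.9 to 40.0 in HEs, for an interaction of -1.06. *GINS4*, a subunit of the replicative helicase, gave -1.20, from TPM values of 19.8 and 22.9 in WT HEs, 29.1 and 31.1 in GATA2-/- HEs, 24.9 and 24.2 in WT HPCs, and 16.6 and 12.6 in GATA2-/- HPCs. *VPS51*, a subunit of an endosomal tethering complex, gave -1.02. Of the 27 cell cycle genes on the list, 0 were at an unadjusted p under 0.05 and the median was -0.01. The remaining genes of the 15 were *LINC00493* (-1.09), *PSMD9* (-3.93), *AL353354.2* (-3.38), *GRAMD1A* (-0.84), *CMTM7* (-1.02), *CC2D1B* (-1.38) and *PDLIM4* (-1.51), beside *GATA2*, *GYPC* and *GP1BB*. *AL353354.2* was listed at 0 in both GATA2-/- HPC libraries. The *PSMD9* values are those of the entry ENSG00000256950, which ranged from 0.610 to 11.9. Of the tested protein-coding genes, 182 share a symbol with another listed gene, so a value stands for its own entry only.

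Most other lists held few genes past an unadjusted p of 0.05. The endothelial markers had 0 of 20, with a median of 0.10, and the arterial and Notch genes 0 of 14. There were also 0 genes among the cytokine receptors and JAK-STAT genes (15), the immediate early genes (20), the macrophage markers (9), the unfolded protein and amino acid response genes (13), the heat shock genes (9), the p53 targets (12), the ribosome biogenesis genes (14) and the pluripotency markers (5). A single positive gene each was found among the venous and lymphatic genes (*PROX1*, 1.47), the granulocyte markers (*LYZ*, 1.18) and the mesenchymal markers (*LUM*, 2.0). A single negative gene each was found among the mast cell, basophil and eosinophil markers (*PRG2*, -2.71), the antigen presentation and interferon genes (*PSMB8*, -1.48), the integrin and basement membrane genes (*NID2*, -0.93) and the ribosomal protein genes (*RPL36A*, -0.58). Among the BMP and TGF-beta genes *SMAD5* was positive (1.28) and *ID1* negative (-1.06), and among the glycolysis and hypoxia genes *ALDOA* (-0.56) and *ENO2* (-0.82) were negative.

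In several lists nearly all members shared a sign, although few or none were past an unadjusted p of 0.05. Among them were the globin genes (9 of 10 positive) and the antigen presentation and interferon genes (2 of 16 positive). The cholesterol synthesis and ribosomal protein genes were others. The genes of a list share the 8 libraries and are not independent replicates, so such counts are not separate cases. Of the 18 cholesterol synthesis genes, which make sterols from acetyl-CoA, 18 had a positive interaction (median 0.36), while 57.8% of all protein-coding genes did. *HMGCS1*, an early enzyme of the pathway, had a TPM of 178.8 and 125.4 in WT HEs, 133.7 and 163.1 in GATA2-/- HEs, 106.6 and 65.5 in WT HPCs, and 217.3 and 118.0 in GATA2-/- HPCs. It was higher in both GATA2-/- HPC libraries than in both WT HPC libraries, and overlapped in HEs. With the replicate 2 libraries alone, 12 of the 18 were positive. The median was 0.08 without GATA2-/- HPC replicate 1, 0.17 without WT HPC replicate 2, 0.19 without WT HE replicate 1 and 0.69 without GATA2-/- HPC replicate 2. Of the 81 cytosolic ribosomal protein genes, 2 had a positive interaction (median -0.30), and 13 did so after quantile normalization. The clustered histone genes, 20 of 36 tested, had a median of 0.72, with 2 positive genes at an unadjusted p under 0.05, *HIST2H2AA3* (1.79) and *HIST1H2BJ* (2.13). Their messages mostly lack a poly(A) tail, and near-identical copies share reads, so their values are uncertain.

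**Figure D4:**
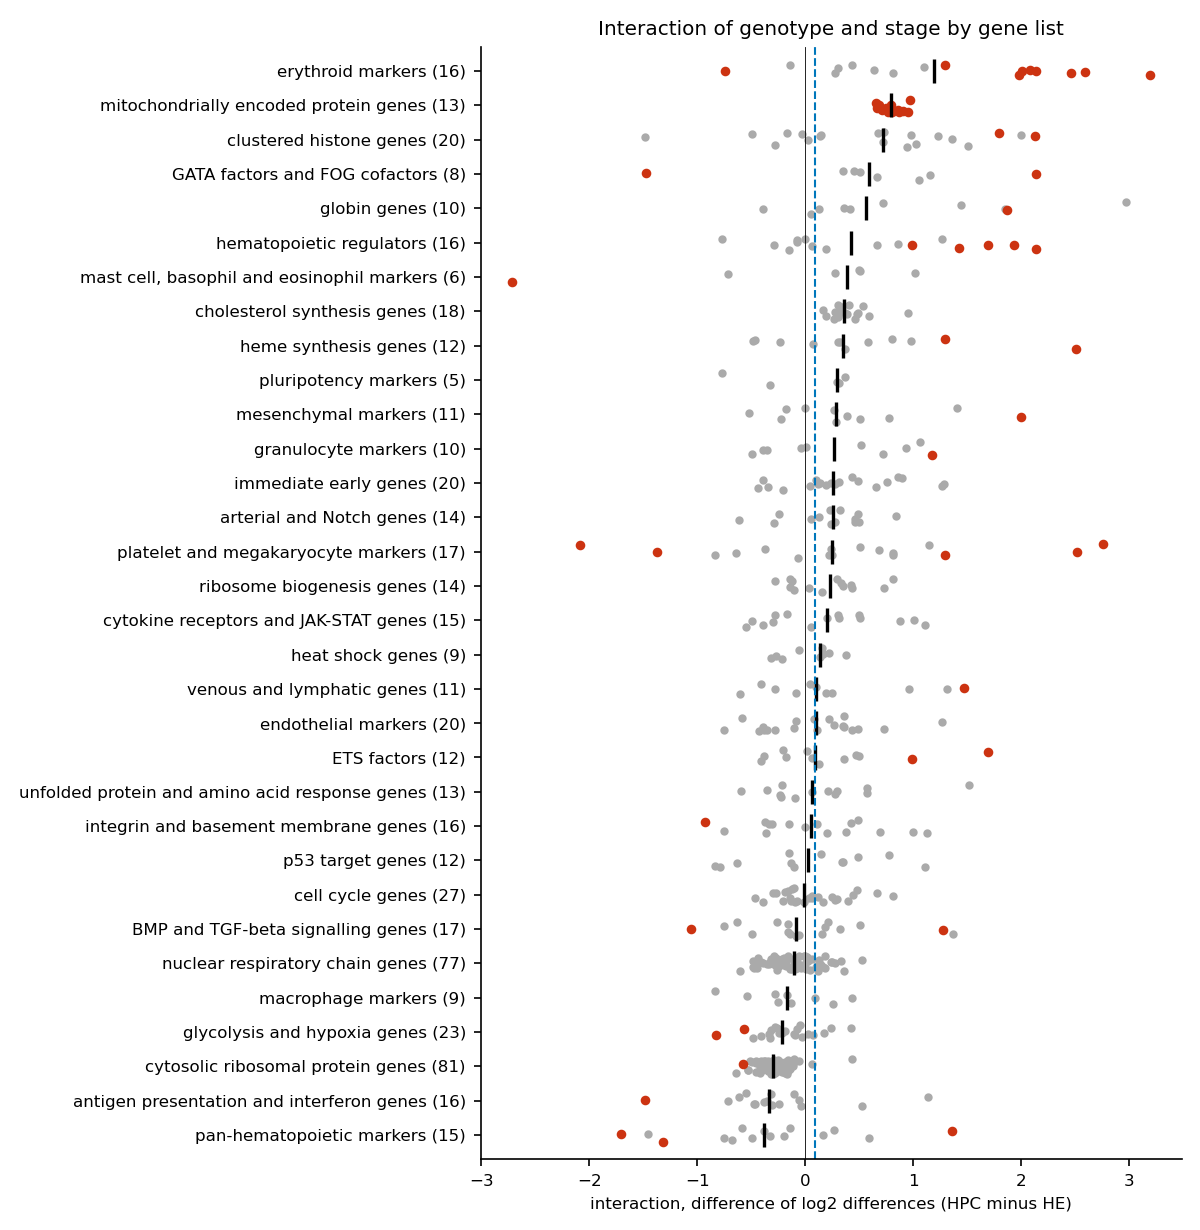
Interaction of each tested gene by list, on the log2 scale, with the number tested in parentheses; red points have an unadjusted limma p under 0.05, black bars are list medians and the dashed blue line is the median of all protein-coding genes, 0.09. Erythroid markers are at the top with a median of 1.20 and pan-hematopoietic markers at the bottom with -0.38, and lists share genes such as *GATA1*.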

How the data were processed

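RNA-seq of sorted cells was analysed from 8 of the series' libraries. The deposited files give TPM per gene, which the authors computed after trimming and alignment to hg19, and the submitters' processing notes name Bowtie and RSEM, with mm10 beside hg19. The program that wrote the TPM is not given in the sources used here, and TPM keeps no read counts. Values were taken as log2(TPM + 1), so fold changes of low genes are understated. limma 3.58.1 (R 4.3.3, lmFit and eBayes with trend) was fitted to 4 group means over the 19870 genes of any class with a TPM of at least 1 in 2 or more libraries, and Benjamini-Hochberg adjustment covered all of them. Of these, 95.5% had an entry in the GENCODE annotation on GRCh37. The script was tested on simulated data. Members and lists were chosen with earlier results of these data known. Named are *GATA2*, list members, and in each direction the 15 protein-coding genes with the smallest p among those at an unadjusted p under 0.05, with a group mean TPM of at least 5 and HPC differences that did not overlap the HE differences. The 5 with the smallest p among those with opposite directions in both stages were named too. Alternatives were another pseudocount (0.1), a stricter filter (TPM of 5), no filter, quantile normalization, median centring, TPM without mitochondrial genes, protein-coding genes only, no trend, the GATA2-/- hESC libraries added, replicate blocks, and each library left out. WT hESCs were not analysed here. 1 named gene is counted in the totals but not reported here.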

Additional observations from a re-analysis of the deposited data

Results flagged for a closer look

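The 70 genes counted here are the named genes with an unadjusted p under 0.05 from limma. List members named above with a larger p, such as *TFRC* and *EPOR*, are not among them. In 27 of them, both GATA2-/- libraries differed from both WT libraries in one direction in HEs and in the other direction in HPCs. Of these, 16 were lower in GATA2-/- HEs and higher in GATA2-/- HPCs. They were *WFS1* (interaction 1.63), *INO80* (1.71), *ATP8A1* (2.45), *TGIF2-C20orf24* (2.70), *ITGB3* (2.52), *AP000304.12* (3.79), *NFE2* (2.46), *ANK1* (2.01), *ALAS2* (2.51), *SLC25A37* (1.30), *LYZ* (1.18), *MT-CO2* (0.66), *MT-CO3* (0.72), *MT-ND5* (0.90), *MT-ND6* (0.80) and *HIST2H2AA3* (1.79). The other 11 went the opposite way, and were *ITGB2* (-1.71), *VPS51* (-1.02), *PKMYT1* (-1.06), *GINS4* (-1.20), *GYPC* (-0.74), *GRAMD1A* (-0.84), *GP1BB* (-1.37), *HCLS1* (-1.32), *CMTM7* (-1.02), *ALDOA* (-0.56) and *ENO2* (-0.82). None passed the adjusted test of the difference between stages in limma, where the smallest adjusted p among protein-coding genes was 0.710. Over all protein-coding genes, 454 (3.27%) showed the first pattern and 214 (1.54%) the second. Among those at an unadjusted p under 0.05, 48.9% of the positive genes showed the first and 52.1% of the negative genes the second. The count of 27 thus follows from the choice by p and is no result about the named genes. The mitochondrially encoded genes are not separate cases, and *MT-CO2* fell to 0.08 after quantile normalization.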

How the results depend on the processing

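The interaction gave 0 genes at an adjusted p under 0.05 from limma under every alternative except without WT HE replicate 1, where 1 passed (*AL954742.1*, a microRNA gene, 9.32, adjusted p = 0.0338), so leaving out libraries gave 0 to 1. Of positive genes at an unadjusted p under 0.05, 421 as reported, leaving out libraries gave 242 to 620, with 242 without WT HE replicate 1 and 262 without GATA2-/- HE replicate 2. Median centring gave 278. Of negative genes, 171 as reported, leaving out libraries gave 103 to 307, with 103 without WT HE replicate 1, 107 without GATA2-/- HE replicate 1, 113 without WT HPC replicate 1 and 307 without WT HPC replicate 2. TPM without mitochondrial genes gave 107, median centring 480 and quantile normalization 315. Genotype differences at an adjusted p under 0.05 numbered 2 in HEs, but 4 without trend, 1 with median centring or quantile normalization, and 0 without a filter or when any library was left out (0 to 0). In HPCs they numbered 5, but 16 with all 10 libraries, 15 without trend, 10 with the stricter filter, 0 without a filter, and 0 to 1 when a library was left out. The 70 named genes at an unadjusted p under 0.05 from limma all kept their sign under each alternative that gave them a value. Of these, 19 had none in 1 alternative, which dropped mitochondrial genes or low genes. The 70 also kept their sign with the libraries of 1 replicate number alone, a setting chosen after seeing the data. For genes named by p, the rule of no overlap fixes the sign when a library is left out or 1 replicate number is used. The list genes among the 70 were taken at an unadjusted p under 0.05. The kept signs therefore follow largely from the choice of genes and are no separate support. The erythroid median went from 0.79 without GATA2-/- HE replicate 2 to 1.98 with the stricter filter, with 6 to 8 positive genes when a library was left out. Leaving out a library gave medians of 0.25 to 0.65 for the platelet markers, 0.41 to 0.77 for the histone genes, and -0.44 to -0.16 for the ribosomal protein genes.

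The labels do not say that replicate numbers pair the libraries, although the headers of the 4 replicate 2 files share a suffix whose meaning is not given. Deviations of equal numbers correlated with r = 0.129 between genotypes in HEs, 0.058 in HPCs and -0.018 to 0.033 across stages, and with 0.211, 0.141 and -0.04 to 0.04 when only genes averaging a TPM of 5 or more were used. With a replicate block 603 positive and 267 negative genes were at an unadjusted p under 0.05, and with a block within each stage 727 and 360. Of the 81 ribosomal protein genes 23 were negative with the replicate block, against 1 without it. With either block 0 genes passed the adjusted threshold for the interaction, in HEs or in HPCs. The depth is unknown, and 2 libraries a group leave a median standard error of 0.45.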
